A study of Mus musculus with 8 samples.

Results

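The 9 genes described here are the central components of the hedgehog pathway and the targets by which its activity is usually read, chosen by name from the 36808 genes of the table. They are the ligand gene Shh, the receptor and co-receptor genes Ptch1, Hhip, Boc and Cdon, the transducer gene Smo, and the transcription factor genes Gli1, Gli2 and Gli3. RNA-seq values were analysed for 8 libraries, each the only library of its condition. Embryonic stem cells (ESCs) came from the E14 wild-type line (129/Ola background), the CJ7 wild-type line (129/S), Suz12delta cells (C57/BL6) and Eednull cells (BALB/cR1). Spinal motor neuron (SMN) cultures at day 5 came from E14 wild-type, Suz12GT (129/Ola), Suz12delta and Eednull cells. Suz12GT ESCs were not analysed here.

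SUZ12 and EED are core subunits of Polycomb Repressive Complex 2 (PRC2), the enzyme that places the repressive histone mark H3K27me3. Suz12GT is a gene trap that fuses SUZ12 to a β-galactosidase reporter and leaves part of the H3K27me3, Suz12delta makes a truncated SUZ12, and Eednull carries a point mutation in Eed. ESCs of every line were grown in serum and LIF on irradiated mouse embryonic fibroblasts, which were removed by a brief plating step. For SMN differentiation, LIF was withdrawn and cells were treated with retinoic acid plus a compound that activates hedgehog signalling, and they were collected at day 5 as aggregates. Each mutant is 1 line, and outside the pair of E14 and Suz12GT lines a difference between lines cannot be told apart from a difference in strain background.

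In hedgehog signalling, the secreted ligand binds Patched, which otherwise holds the membrane protein Smoothened inactive. Freed Smoothened acts at the primary cilium to turn GLI2 and GLI3 from repressors into activators, and the cell then transcribes Gli1, Ptch1 and Hhip in nearly every responding tissue. Because an agonist can act on Smoothened directly, cells in this protocol can respond without making ligand of their own. In the ventral neural tube the signal also turns on genes such as Olig2, Nkx2-2 and Nkx6-1, which set up motor neuron and neighbouring progenitors, and at its highest levels Foxa2 of the floor plate. The question for these genes was whether each line showed a response to the hedgehog signal of the protocol at day 5. Every day 5 culture had LIF withdrawn and received retinoic acid and the agonist together. A change from ESC to day 5 therefore cannot be told apart as an effect of the agonist, of retinoic acid or of differentiation.

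The promoters of Ptch1 and Hhip are shown because both genes stood higher at day 5 than in ESCs in every line measured at both stages, and because PRC2 is known to act at promoters rich in CpG dinucleotides. This rise was not particular to them, since Shh, Smo and Boc were also higher in these lines, Boc only slightly in Suz12delta cells. The sequences are the 250 bases before the start site in RefSeq (GRCm38.p6), written 5′ to 3′ on the gene's strand with each CG in capitals. That of Ptch1 lies at chr13:63565736-63565985 on the minus strand, and that of Hhip at chr8:80058009-80058258 on the minus strand.
Ptch1: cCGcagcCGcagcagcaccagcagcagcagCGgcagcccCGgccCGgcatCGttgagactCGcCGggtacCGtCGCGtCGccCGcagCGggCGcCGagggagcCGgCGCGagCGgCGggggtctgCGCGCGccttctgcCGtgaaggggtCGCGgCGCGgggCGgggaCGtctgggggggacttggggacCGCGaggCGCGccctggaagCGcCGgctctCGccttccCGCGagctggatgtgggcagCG
Hhip: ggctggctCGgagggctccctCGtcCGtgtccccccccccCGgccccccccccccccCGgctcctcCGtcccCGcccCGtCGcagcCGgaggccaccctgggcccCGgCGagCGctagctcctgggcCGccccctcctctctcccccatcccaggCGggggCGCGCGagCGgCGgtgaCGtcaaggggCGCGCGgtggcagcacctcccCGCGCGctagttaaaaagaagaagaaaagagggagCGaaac
The Ptch1 window held 41 CG dinucleotides, more than 98.9% of the 32851 promoter windows of this length, and the Hhip window held 28, more than 92.4% of them. The median window held 6. Among the other members in the RefSeq table, Gli3 had 34, Gli2 had 22, Smo had 15 and Cdon had 1. The binding sequence of GLI proteins, GACCACCCA, was found in none of these 6 windows on either strand, and neither was its core CCACCCA. The longer sequence was in 0.225% and the core, which it contains, in 8.11% of all windows. No match says only that these letters are not in the 250 bases searched.

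The SMN cultures were checked against marker lists. The 6 ESC markers summed to between 350 and 720 FPKM (a measure of transcript abundance adjusted for transcript length and for library size) in the 4 ESC libraries and to between 0.776 and 13.4 FPKM in the 4 day 5 libraries. The 5 motor neuron markers summed to 77.3 FPKM in E14, 89.0 in Suz12GT, 13.1 in Suz12delta and 10.7 in Eednull cells at day 5, so that the last 2 cultures held far less of the markers of the labelled cell type. Suz12 itself was 6.21 FPKM in Suz12delta ESCs against 35.7 to 53.1 FPKM in the other ESC libraries. Its day 5 level was 10.3 FPKM in Suz12GT and 11.6 FPKM in Suz12delta cells, against 16.2 in E14 and 17.6 in Eednull cells. Eed was between 11.1 and 50.9 FPKM in all 8 libraries, and a point mutation need not change its level. Read depth is unknown, and no difference below has a replicate check. The labels place the CJ7 library in a batch with a further library that, by the name in the table, is that of Eednull ESCs. Comparisons of Eednull or CJ7 ESCs with E14 or Suz12delta ESCs, or with day 5 cells, therefore cross batches.

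Ratios between libraries are given as log2 of FPKM plus 0.1, and a gene was counted as higher or lower where this ratio reached 2-fold. From ESC to day 5, 2 of the 9 genes were higher (Shh and Hhip) and 1 was lower (Gli2) in E14 cells. In Suz12delta cells 8 were higher, all but Boc, and 0 lower, and in Eednull cells 7 were higher, all but Smo and Gli2, and 0 lower. Over all genes compared, 15.3% were higher and 21.3% lower in E14, 24.6% higher and 9.65% lower in Suz12delta, and 16.2% higher and 16.6% lower in Eednull cells. The median log2 ratio of the 9 genes was 0.64 in E14, 1.83 in Suz12delta and 1.45 in Eednull cells, where that of all genes was -0.17, 0.42 and 0.01. In Suz12delta cells the background depended on scaling. With libraries scaled to the same 75th percentile, 14.8% of genes were higher and 14.2% lower, and 5 of the 9 members were higher, namely Shh, Ptch1, Hhip, Smo and Gli1.

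**Figure D1:**
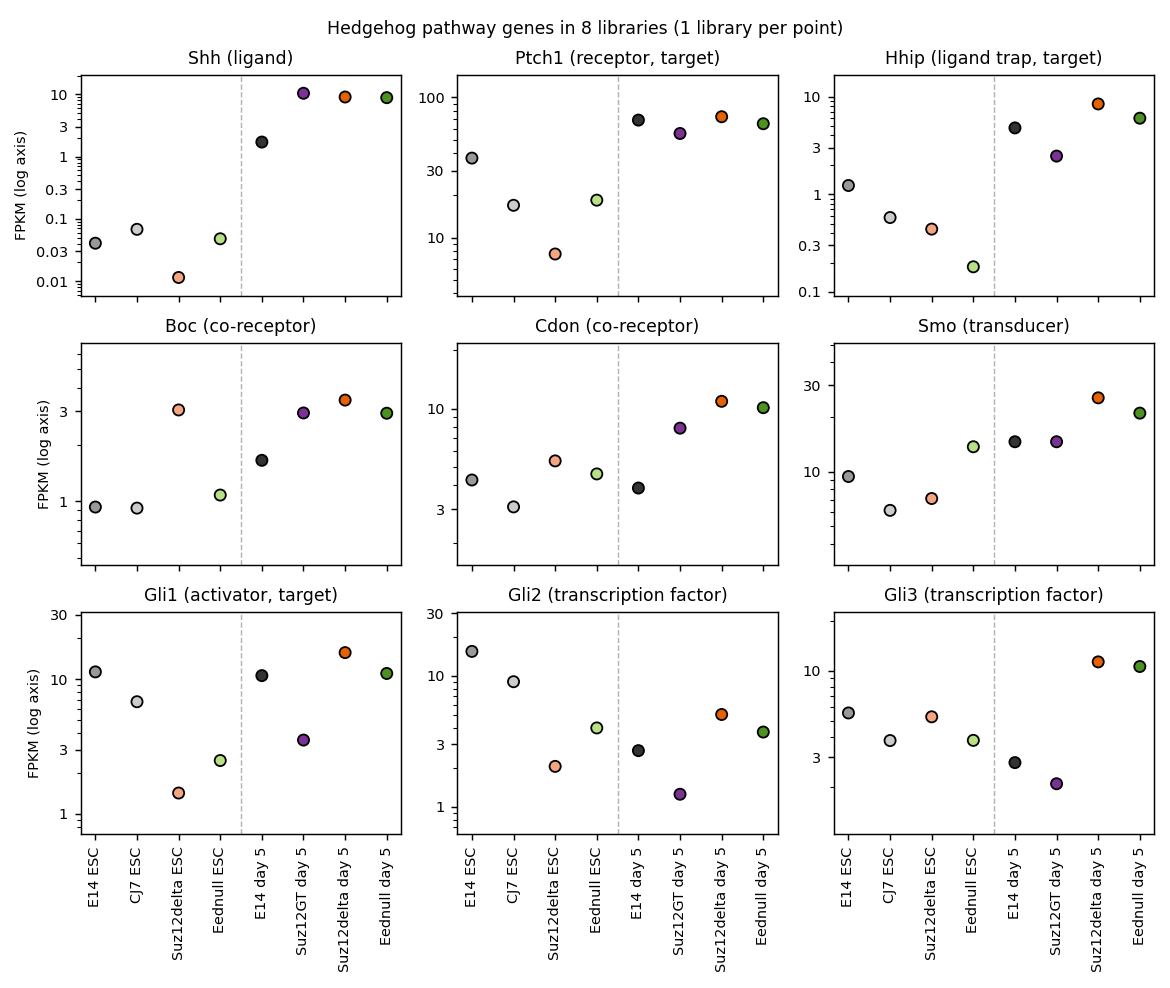
FPKM of the 9 hedgehog pathway genes (log axis, a separate range for each gene) in the 4 ESC libraries left of the dashed line and the 4 day 5 libraries right of it, each point 1 library. All 4 day 5 points lie above all 4 ESC points for Shh, Ptch1, Hhip and Smo, and the Suz12GT day 5 point is the lowest of the day 5 points for Ptch1, Hhip, Gli1, Gli2 and Gli3.

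Shh encodes Sonic hedgehog, the ligand, which in the embryo is made by notochord, floor plate and gut endoderm. The gene lies on the minus strand of chr5:28783355-28793641 (NCBI build 37). It was near 0 in every ESC library, with 0.0405 FPKM in E14, 0.0677 in CJ7, 0.0114 in Suz12delta and 0.0477 in Eednull ESCs. At day 5 it was 1.71 FPKM in E14, 10.4 in Suz12GT, 9.06 in Suz12delta and 8.84 in Eednull cells. All 4 day 5 cultures thus lay above every ESC library, and the 3 mutants held similar levels, each above that of wild-type cells. The log2 ratio to E14 day 5 was 2.54 in Suz12GT, 2.34 in Suz12delta and 2.31 in Eednull cells. These 3 ratios share 1 control library. Shh overlaps exons of 2 genes on the opposite strand, 9530036O11Rik and Gm17493, which reached at most 0.224 and 0.988 FPKM, and whether counting used strand is not given in the sources used here.

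Marker lists of the cells that can make Shh differed among the mutants. The 4 floor plate markers (Foxa2, Spon1, Ferd3l and Ntn1) summed to 33.1 FPKM in E14, 98.4 in Suz12GT, 19.9 in Suz12delta and 25.9 in Eednull cells at day 5. Ntn1 was the largest part of this sum in E14 and Suz12GT cells, at 23.5 and 57.0 FPKM. It was 5.34 FPKM in Suz12delta and 7.39 FPKM in Eednull cells. The sum is not particular to floor plate, since it was 19.7 FPKM in E14 ESCs, with Ntn1 at 19.3 FPKM. In Suz12GT cells 4 of 4 were higher than in E14, in Suz12delta cells 1 was higher and 3 lower, and in Eednull cells 1 was higher and 1 lower of the 3 compared. The gene that was higher in every mutant was Foxa2, at 2.96 FPKM in E14, 11.8 in Suz12GT, 12.0 in Suz12delta and 13.5 in Eednull cells. Foxa2 also belongs to the 8 endoderm markers, which summed to 4.45 FPKM in E14, 34.3 in Suz12GT, 56.5 in Suz12delta and 48.9 in Eednull cells, with Gata4 and Afp listed at 0 in E14. Of the endoderm markers, 6 of 6 compared were higher than in E14 in each mutant. Over all genes in these day 5 comparisons, 13.2% were higher and 2.42% lower in Suz12GT cells. The shares were 20.9% and 7.76% in Suz12delta and 16.8% and 9.55% in Eednull cells. In ESCs, where Shh was under 0.1 FPKM in every library, the endoderm sum was 1.37 FPKM in E14, 2.08 in CJ7, 5.29 in Suz12delta and 24.8 in Eednull cells. The part of these cell types in the Shh level was not tested, and in these bulk cultures more cells of a type and more RNA per cell cannot be told apart.

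**Figure D2:**
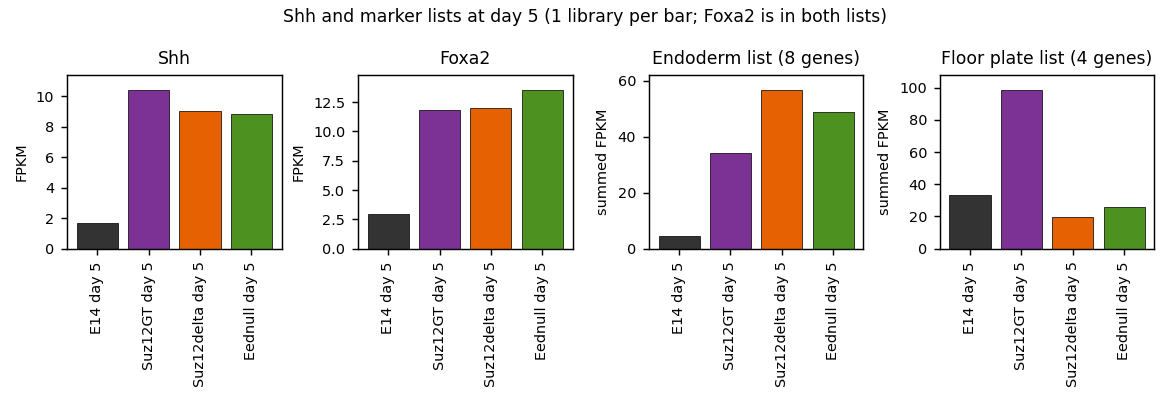
FPKM of Shh and Foxa2 and summed FPKM of the 8 endoderm and 4 floor plate markers in the 4 day 5 libraries, each bar 1 library with no error available. Shh, Foxa2 and the endoderm sum are lowest in E14 cells, whereas the floor plate sum is highest in Suz12GT cells at 98.4 and lowest in Suz12delta cells at 19.9.

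Of the other ligand genes, Ihh, which encodes Indian hedgehog, was at most 0.162 FPKM in ESCs. At day 5 it was listed at 0 in E14 and was 1.08 FPKM in Suz12GT, 2.69 in Suz12delta and 3.55 in Eednull cells. The order of the day 5 libraries for Ihh was thus that of neither Shh nor the floor plate sum. Dhh, for Desert hedgehog, reached at most 0.368 FPKM in any library. Hhat, whose enzyme attaches palmitate to the ligands, was between 1.97 and 3.65 FPKM at day 5. Disp1 was listed at 0 in all 8 libraries, which can be a failed estimate.

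Ptch1 encodes the ligand's receptor and is itself a target, so that its transcript is a common readout of the pathway. It lies on the minus strand of chr13:63610261-63674474. Its level was 36.9 FPKM in E14, 17.0 in CJ7, 7.64 in Suz12delta and 18.5 in Eednull ESCs. Day 5 cells had 68.9 FPKM in E14, 55.3 in Suz12GT, 72.8 in Suz12delta and 64.9 in Eednull cells. The ESC libraries were spread widely, and the day 5 libraries lay close together and above all of them. The log2 ratio of day 5 to ESC was 0.90 in E14, 3.24 in Suz12delta and 1.81 in Eednull cells. All 3 mutants were near the wild-type level at day 5, with log2 ratios to E14 day 5 of -0.32 in Suz12GT, 0.08 in Suz12delta and -0.09 in Eednull cells. The Suz12delta ratio lay between -0.16 and 0.08 over the settings tried.

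Hhip encodes a membrane protein that binds hedgehog ligands and keeps them from Patched, and it too is a target. The gene lies on the minus strand of chr8:82490014-82581905. It was 1.23 FPKM in E14, 0.578 in CJ7, 0.440 in Suz12delta and 0.181 in Eednull ESCs. Day 5 levels were 4.78 FPKM in E14, 2.46 in Suz12GT, 8.41 in Suz12delta and 6.01 in Eednull cells. All day 5 libraries lay above all ESC libraries, with Suz12GT the lowest of the former. Between ESC and day 5 the log2 ratio was 1.88 in E14, 3.98 in Suz12delta and 4.44 in Eednull cells. Against E14 day 5 the ratios were -0.93, 0.80 and 0.33 for Suz12GT, Suz12delta and Eednull cells. The Suz12GT ratio reached 2-fold lower when scaled to the same 75th percentile.

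Boc and Cdon encode related cell surface proteins that bind the ligand together with Patched. Boc lies on the minus strand of chr16:44485158-44559010 and Cdon on the plus strand of chr9:35228713-35315236. In ESCs, Boc was 0.933 FPKM in E14, 0.921 in CJ7, 3.05 in Suz12delta and 1.08 in Eednull cells, so that Suz12delta stood apart. Boc at day 5 was 1.65 FPKM in E14, 2.94 in Suz12GT, 3.44 in Suz12delta and 2.93 in Eednull cells. Cdon was 4.26, 3.09, 5.35 and 4.58 FPKM in E14, CJ7, Suz12delta and Eednull ESCs, and 3.87, 7.91, 10.9 and 10.1 FPKM in E14, Suz12GT, Suz12delta and Eednull cells at day 5. For both co-receptors the 3 mutant day 5 libraries lay above the E14 day 5 library. The log2 ratio to E14 day 5 was 1.01 in Suz12GT, 1.47 in Suz12delta and 1.36 in Eednull cells for Cdon, and 0.80, 1.02 and 0.79 for Boc. In E14 cells the log2 ratio of day 5 to ESC for Cdon was -0.13, and no setting tried moved it beyond -0.14.

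Of 4 further receptor and co-receptor genes, 3 could be compared between E14 and each mutant at day 5. Of these, 1 was higher in Suz12GT, 2 in Suz12delta and 1 in Eednull cells, with 0 lower. Over all genes, 13.2% were higher and 2.42% lower in Suz12GT, 20.9% and 7.76% in Suz12delta, and 16.8% and 9.55% in Eednull cells. Gas1, for a co-receptor, was 13.9 FPKM in Suz12delta cells at day 5 and between 4.38 and 5.54 FPKM in the other day 5 libraries. Lrp2, for a large endocytic receptor, went from 14.8 FPKM in E14 ESCs to 1.02 FPKM at day 5. Gpc3, a glypican that restrains hedgehog, was listed at 0 in E14 day 5 cells and was between 74.0 and 103 FPKM in the 3 mutants. It was also listed at 0 in CJ7 ESCs, against 26.4 FPKM in E14 ESCs, and such a 0 can be a failed estimate.

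Smo encodes Smoothened, the membrane protein on which Patched and the known agonists act. It lies on the plus strand of chr6:29685694-29711365. It was 9.39 FPKM in E14, 6.11 in CJ7, 7.10 in Suz12delta and 13.7 in Eednull ESCs. Day 5 cells had 14.6 FPKM in E14 and in Suz12GT cells, 25.5 in Suz12delta and 21.0 in Eednull cells. All day 5 libraries lay above all ESC libraries, although the E14 and Suz12GT values were close to that of Eednull ESCs. The log2 ratio of day 5 to ESC was 0.64 in E14, 1.83 in Suz12delta and 0.61 in Eednull cells. Ptch1 exceeded Smo in every library, with a ratio of Ptch1 to Smo FPKM from 1.08 in Suz12delta ESCs to 4.70 in E14 day 5 cells.

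Below Smoothened, most transcripts of the machinery were within 2-fold of E14 cells in each mutant at day 5. Of 20 genes for transduction, among them the GLI inhibitor Sufu and the kinase subunit gene Prkaca, 0 differed 2-fold in Suz12GT cells. In Suz12delta cells 1 was higher and 1 lower, and in Eednull cells 0 were higher and 1 lower. Over all genes in these comparisons, 13.2% were higher and 2.42% lower in Suz12GT, 20.9% and 7.76% in Suz12delta, and 16.8% and 9.55% in Eednull cells. From ESC to day 5, 8 of the 20 were higher in E14, 6 of 20 in Suz12delta and 3 of 19 in Eednull cells, and 0 were lower. The shares of all genes that were higher over this step were 15.3%, 24.6% and 16.2%. Those that differed at least 4-fold in any comparison were Gpr161, a ciliary receptor that holds the pathway down, from 1.01 to 6.23 FPKM in E14 cells, Stk36, for a kinase related to the fly protein Fused, from 1.52 to 7.05 FPKM in E14 cells, and Arrb1, for a β-arrestin, from 2.11 to 9.29 FPKM in Suz12delta cells. Of 15 genes of the primary cilium, 0 differed 2-fold from E14 in any mutant at day 5. From ESC to day 5, 2 of the 15 were higher in each line. The shares of all genes are those given above for each comparison.

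Gli1 encodes an activator whose own transcription depends largely on the signal, and its transcript is the most widely used readout of the pathway. It lies on the minus strand of chr10:126766945-126778645. In ESCs it was 11.3 FPKM in E14, 6.79 in CJ7, 1.43 in Suz12delta and 2.49 in Eednull cells. In day 5 cells it was 10.6 FPKM in E14, 3.53 in Suz12GT, 15.7 in Suz12delta and 11.0 in Eednull cells. Gli1 was thus as high in E14 ESCs as in E14 day 5 cells, and the low values were those of mutant ESCs and of Suz12GT day 5 cells. The log2 ratio of day 5 to ESC was -0.10 in E14, 3.37 in Suz12delta and 2.10 in Eednull cells, and that of E14 lay between -0.10 and 0.04 over the settings tried. The log2 ratio to E14 day 5 was -1.56 in Suz12GT, a ratio below which only 0.621% of all genes compared lay, 0.57 in Suz12delta and 0.06 in Eednull cells. Gli1 overlaps exons of Arhgap9 on the opposite strand. Arhgap9 was between 0.877 and 2.96 FPKM in ESCs and between 0.0117 and 0.843 FPKM at day 5, so in mutant ESCs its level was near that of Gli1.

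Gli2 encodes the main activator on which the first response rests. It lies on the minus strand of chr1:120730709-120950196. It was 15.4 FPKM in E14, 9.04 in CJ7, 2.04 in Suz12delta and 4.01 in Eednull ESCs, so both wild-type lines lay above both mutants. Among day 5 libraries it was 2.69 FPKM in E14, 1.25 in Suz12GT, 5.08 in Suz12delta and 3.73 in Eednull cells. From ESC to day 5 the log2 ratio was -2.47 in E14, 1.27 in Suz12delta and -0.10 in Eednull cells. Gli2 was the 1 member counted as lower over differentiation in E14 cells, and at day 5 its order among libraries was that of Gli1 with Suz12GT lowest and Suz12delta highest.

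Gli3 encodes the main repressor of the pathway in cells without signal. It lies on the plus strand of chr13:15555068-15821859. In ESCs its range was narrow, at 5.56 FPKM in E14, 3.79 in CJ7, 5.27 in Suz12delta and 3.80 in Eednull cells. At day 5 it was 2.79 FPKM in E14, 2.08 in Suz12GT, 11.3 in Suz12delta and 10.6 in Eednull cells. The day 5 libraries fell on both sides of the ESC range, with E14 and Suz12GT below it and Suz12delta and Eednull above it. The log2 ratio of day 5 to ESC was -0.97 in E14, 1.08 in Suz12delta and 1.45 in Eednull cells. Against E14 day 5 it was -0.41 in Suz12GT, 1.97 in Suz12delta and 1.88 in Eednull cells.

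**Figure D3:**
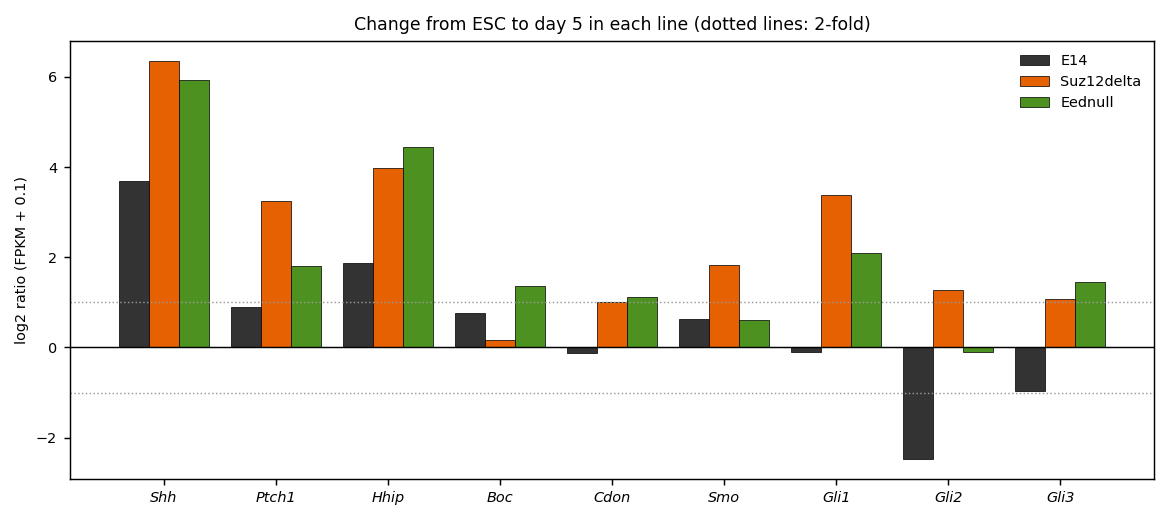
Log2 ratio of day 5 to ESC (FPKM plus 0.1) for the 9 genes in E14, Suz12delta and Eednull cells, each bar the ratio of 2 libraries, with dotted lines at 2-fold. Gli2 and Gli3 are below 0 in E14 cells at -2.47 and -0.97, while Gli1 is at -0.10 in E14 cells and at 3.37 and 2.10 in Suz12delta and Eednull cells.

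Within a library, the balance of the GLI genes does not depend on scaling. The ratio of Gli1 to Gli3 FPKM was 2.04 in E14 and 1.79 in CJ7 ESCs, against 0.271 in Suz12delta and 0.656 in Eednull ESCs. At day 5 it was 3.79 in E14, 1.70 in Suz12GT, 1.40 in Suz12delta and 1.04 in Eednull cells. At both stages the wild-type libraries had more Gli1 for their Gli3 than any mutant. The ratio of Gli1 to Gli2 was between 0.621 and 0.751 in all 4 ESC libraries and between 2.83 and 3.92 in all 4 day 5 libraries. It thus differed far more between stages than between lines. At both stages the wild-type libraries again lay above every mutant, by smaller margins than for Gli1 to Gli3. The ratio of Gli1 to Ptch1 at day 5 was 0.153 in E14, 0.0638 in Suz12GT, 0.216 in Suz12delta and 0.170 in Eednull cells.

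At day 5, the comparison of mutant with E14 cells gave 2 members higher and 2 lower of 9 in Suz12GT (Shh and Cdon, and Gli1 and Gli2), where 13.2% of all genes were higher and 2.42% lower. Cdon, at 1.01, was under 2-fold with either scaling, and Gli2, at -1.05, with a pseudocount of 1. In Suz12delta cells 4 were higher (Shh, Boc, Cdon and Gli3) and 0 lower, where 20.9% of genes were higher and 7.76% lower. In Eednull cells 3 were higher (Shh, Cdon and Gli3) and 0 lower, where 16.8% of genes were higher and 9.55% lower. With scaling by the median of ratios, the split over all genes in Suz12delta cells was 17.4% higher and 10.7% lower. The median log2 ratio of the 9 genes was -0.32 in Suz12GT, 0.89 in Suz12delta and 0.52 in Eednull cells, and that of all genes was 0.12, 0.21 and 0.05. These comparisons share the E14 day 5 library, and Suz12GT is the only mutant of the same strain background as E14.

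**Figure D4:**
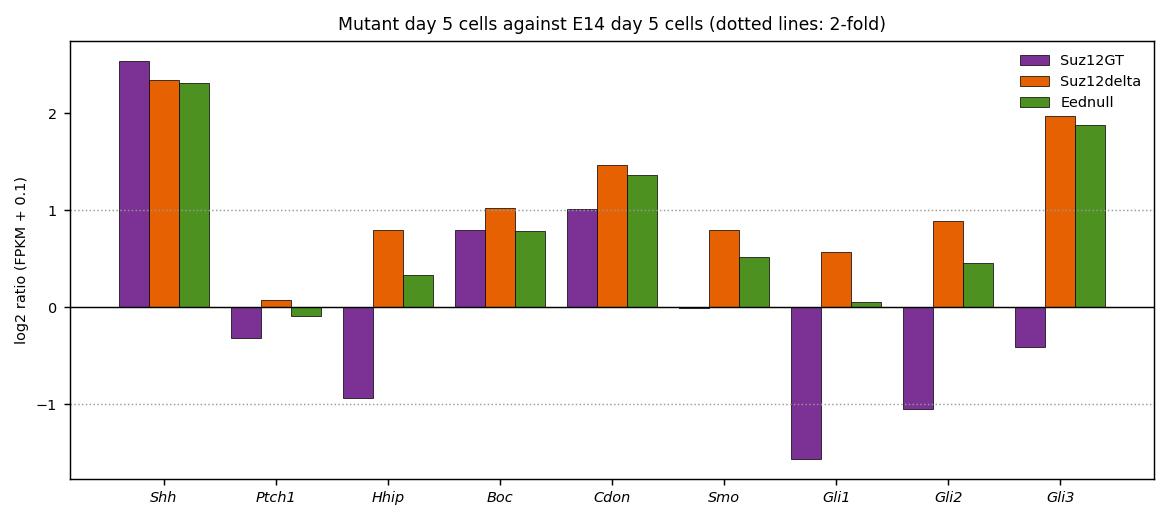
Log2 ratio of each mutant day 5 library to the E14 day 5 library (FPKM plus 0.1) for the 9 genes, each bar the ratio of 2 libraries, with dotted lines at 2-fold. Shh is above 2-fold in all 3 mutants at 2.54, 2.34 and 2.31, Gli3 only in Suz12delta and Eednull cells, and Gli1 is lower in Suz12GT cells at -1.56.

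The targets that most responding tissues share and the genes of the ventral neural tube did not go together in Suz12delta and Eednull cells. Of Ptch1, Hhip and Gli1, 0 of 3 were 2-fold lower than E14 in Suz12delta or Eednull cells at day 5. Over all genes, 7.76% were lower in Suz12delta and 9.55% in Eednull cells, so 0 of 3 lower is near the share of all genes. Of 7 ventral genes, 6 were 2-fold lower and 1, Foxa2, was higher in each of these lines. The shares of all genes that were higher were 20.9% in Suz12delta and 16.8% in Eednull cells. Olig2, which specifies motor neuron progenitors, was 22.1 FPKM in E14, 10.5 in Suz12GT, 0.107 in Suz12delta and 0.0455 in Eednull cells. Nkx2-2, of the progenitors next to the floor plate, was 4.46, 5.05, 0.242 and 0.150 FPKM in the same order, and Nkx6-1, of the whole ventral domain, was 13.9, 13.8, 1.90 and 1.56 FPKM. In Suz12GT cells 1 of 7, Foxa2, was higher than in E14 and 1 of 7, Olig2, was lower. Of all genes, 13.2% were higher and 2.42% lower in this comparison. In E14 cells 7 of 7 were higher at day 5 than in ESCs, with a median log2 ratio of 4.78, where 15.3% of all genes were higher. Olig2 was lower at day 5 than in ESCs in both mutants, at 1.12 FPKM in Suz12delta and 5.19 FPKM in Eednull ESCs.

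**Figure D5:**
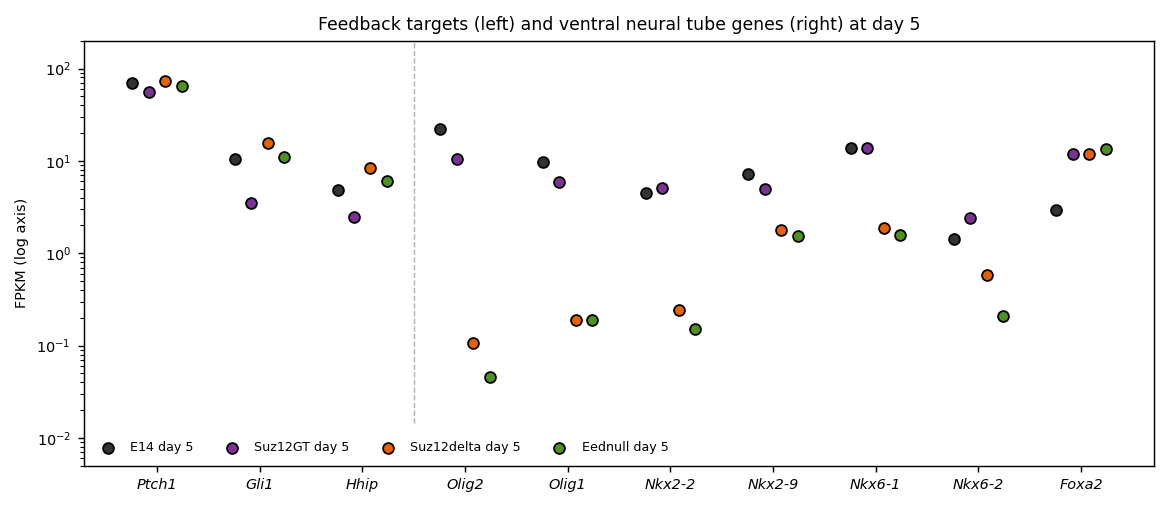
FPKM (log axis) at day 5 of the targets Ptch1, Gli1 and Hhip, left of the dashed line, and of 7 ventral neural tube genes, right of it, each point 1 library. Suz12delta and Eednull points lie near or above E14 for the targets and below E14 for every ventral gene except Foxa2, and Suz12GT is the lowest library for all 3 targets.

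The cultures also differed in their cells. The 6 neural progenitor markers summed at day 5 to 135 FPKM in E14, 119 in Suz12GT, 30.1 in Suz12delta and 26.6 in Eednull cells, and the 12 fibroblast markers to 5.72, 25.8, 127 and 65.0 FPKM, with Lum and S100a4 listed at 0 in E14. Against E14, 2 of the neural progenitor markers were higher and 2 lower in Suz12GT cells. In Suz12delta cells 1 was higher and 4 lower, and in Eednull cells 1 was higher and 5 lower. Over all genes, 13.2% were higher and 2.42% lower in Suz12GT, 20.9% and 7.76% in Suz12delta, and 16.8% and 9.55% in Eednull cells. The marker higher in every mutant was Zic1, at 0.203 FPKM in E14, 3.54 in Suz12GT, 6.67 in Suz12delta and 6.69 in Eednull cells. Thus the cultures with low ventral genes were those with a low neural progenitor sum. Among day 5 libraries, Cdon and Gli3 were highest where the fibroblast sum was highest. Suz12delta ESCs, with a larger fibroblast sum of 849 FPKM, had Cdon at 5.35 and Gli3 at 5.27 FPKM. The part of these markers in the levels of the members was not tested. Of 13 hedgehog targets of mesoderm and other tissues, 2 of 8 compared were higher than in E14 in Suz12GT cells and 3 of 8 in Suz12delta and in Eednull cells, with 0 lower. The shares of all genes are those above. Foxf2 and Prdm1 were listed at 0 in E14 and so were not compared. Foxf2 was 0.262 FPKM in Suz12GT, 3.79 in Suz12delta and 3.63 in Eednull cells, and Prdm1 was 0.112, 3.11 and 3.02 FPKM. The other genes not compared were listed at 0 in every library. Hand2, of limb and heart mesoderm, was 0.151 FPKM in E14, 1.97 in Suz12GT, 3.59 in Suz12delta and 2.76 in Eednull cells. Of 7 dorsal and intermediate neural tube genes that the signal lowers in the embryo, 5 were compared in Suz12delta and 4 in Eednull cells. In each line 1 was higher and 3 were lower than in E14, beside the shares of all genes above. The higher gene was Msx1, of dorsal progenitors and mesoderm, at 0.176 FPKM in E14, 4.56 in Suz12delta and 1.31 in Eednull cells. Irx3, of intermediate progenitors, was lower, at 7.19, 1.38 and 0.818 FPKM. Pax3 was listed at 0 in E14 and so was not compared, and was 0.625 FPKM in Suz12delta and 1.21 in Eednull cells. In E14 cells from ESC to day 5, 2 of 3 compared were higher and 1 lower, where 15.3% of all genes were higher and 21.3% lower. Pax6 went from 8.99 to 21.9 FPKM and Irx3 from 0.670 to 7.19 FPKM. The part of the signal in these levels was not tested.

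In ESCs, the targets Ptch1, Hhip and Gli1 and the factor gene Gli2 were lower in Suz12delta cells than in E14 cells, and Boc was higher. This made 4 members lower and 1 higher of 8, since Shh was under 0.1 FPKM in every ESC library, where 21.4% of all genes were lower and 13.7% higher. Scaled to the same 75th percentile, 12.0% of genes were lower and 19.2% higher, and 3 members were lower, since Hhip was at -0.98. The log2 ratios were -2.26 for Ptch1, -1.30 for Hhip, -2.90 for Gli1, -2.86 for Gli2 and 1.61 for Boc. In Eednull ESCs 3 members were lower and 0 higher of 8, namely Hhip at -2.24, Gli1 at -2.14 and Gli2 at -1.91, where 9.71% of genes were lower and 11.5% higher (7.38% and 13.9% when scaled). The median log2 ratio was -0.85 over the members in Suz12delta and -0.76 in Eednull ESCs, and -0.32 and -0.06 over all genes. With CJ7 as the wild-type ESC the member medians were -0.06 and 0.06.

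The choice of wild-type ESC mattered. CJ7 cells were themselves below E14, with 1 of 8 members lower, Ptch1 at -1.12, and 0 higher, where 11.2% of genes were lower and 6.69% higher (7.63% and 9.27% when scaled), and with a member median of -0.67 against -0.17 for all genes. Against CJ7, the ratios in Suz12delta ESCs were -2.17 for Gli1, -2.09 for Gli2, -1.14 for Ptch1 and -0.33 for Hhip. Against CJ7, which shares a batch with Eednull ESCs, the ratios in these cells were -1.41 for Gli1, -1.15 for Gli2, -1.27 for Hhip and 0.12 for Ptch1. Gli1 and Gli2 were thus at least 2-fold lower in both mutant ESC lines than in either wild-type line, whereas the lower Ptch1 of Eednull ESCs was seen only against E14. Ratios of CJ7 to E14 ESCs, of Suz12delta to CJ7 ESCs and of Eednull to E14 ESCs cross batches. Line and batch cannot be told apart in them. The 12 fibroblast markers summed to 126 FPKM in E14, 138 in CJ7, 849 in Suz12delta and 322 in Eednull ESCs, and the part of feeder or differentiated cells in these ratios was not tested. For Eednull cells, stage and batch cannot be told apart in the ratios of day 5 to ESC.

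Genes whose pattern over the 8 libraries was most like that of a target were sought among 16079 genes, by the root mean square difference of centred log2 values. For Gli1 the nearest 4 were Ccdc24 at 0.46, Hunk and SNORA65 at 0.50 and Zfp931 at 0.55. Ptch1 was at rank 99 with 0.74, and Hhip at rank 6600 with 1.12. For Ptch1 they were Zbtb12 at 0.26, Cxadr, Zfp606 and Zc3hav1l at 0.27 and E330009J07Rik at 0.30, with Gli1 at rank 1270 and Hhip at rank 3018. For Hhip they were Emid1 at 0.48, 3300002I08Rik at 0.49, 2500004C02Rik at 0.53, Fam183b at 0.55 and Zfp523 at 0.59. Ptch1 was at rank 98 and Gli1 at rank 648.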

How the data were processed

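RNA-seq values of 8 libraries were used, 1 per condition. The authors deposited gene-level FPKM values. They had aligned reads to NCBI build 37 with Bowtie 0.12.7 under TopHat 1.3.2, and estimated transcript abundance in Cufflinks 1.2.1 (Cuffdiff) against Ensembl gene models, correcting for sequence bias and multiply mapping reads. Library strandedness and depth are not given in the sources used here. Low values were searched for steps of 1 read, but at most 2.28% of low genes shared the commonest ratio, so no counts were recovered.

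Log2 ratios were computed from these values, unscaled, with a pseudocount of 0.1 over genes above 0 in both libraries and at 0.1 FPKM or more in at least 1. Such ratios understate changes of low genes. An exact 0 was taken as listed at 0, not as absence. With no replicates, no test was made and no p-value is given. All 8 value columns were mapped to samples. The members and gene lists were chosen with earlier results of these data known. Genes of a list are named where they reached 1 FPKM and differed 4-fold (at most 4 per list and comparison). Foxa2 at day 5, Ihh and Dhh, Hhat, Disp1, Gpc3, Pax3, Foxf2, Prdm1, Sufu, Prkaca and the markers listed at 0 were named after their values were seen. A few genes of the lists are not reported here and were left out of their counts and sums. The motor neuron marker Slc18a3 was not found under that symbol.

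Gene positions were taken from GENCODE vM1 (NCBI build 37), and promoters from a RefSeq table (GRCm38.p6) that matched 6 of the 9 members. Ratios were also computed with a pseudocount of 1 or 0.01, with no minimum or a higher minimum of 1 FPKM, with 2 scalings over 17842 genes above 0 in every library (75th percentile and median of ratios), and with CJ7 in place of E14 ESCs. Software was matplotlib 3.10.9, pandas 2.3.3, NumPy 2.4.6 and Python 3.11.15.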

Additional observations from a re-analysis of the deposited data

Results flagged for a closer look

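Over differentiation, 4 members had a log2 ratio below 0 in E14 cells and above 2-fold in a mutant line, but only Gli2 was 2-fold lower in E14 cells. The log2 ratio of day 5 to ESC in E14 cells was -0.13 for Cdon, -0.10 for Gli1, -2.47 for Gli2 and -0.97 for Gli3. In Suz12delta cells it was 1.01 for Cdon, 3.37 for Gli1, 1.27 for Gli2 and 1.08 for Gli3. In Eednull cells it was 1.12 for Cdon, 2.10 for Gli1 and 1.45 for Gli3. The difference between lines was not tested, since each condition had 1 library. For Cdon and Gli1 the E14 value was within 0.14 of 0 under every setting, and the sign of Gli1 changed with scaling.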

How the results depend on the processing

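Of 483 values of a member under an alternative setting, 462 moved by less than 1.5 times, 21 moved by more, and 0 values that had reached 2-fold changed sign. The minimum settings leave a ratio unchanged. The library factors of the scalings, between 0.84 and 1.17, are too close together to move a ratio by 1.5 times. Of the values that could move, 10 of 16 did so with CJ7 as the wild-type ESC, 8 of 78 with a pseudocount of 1 and 3 of 78 with 0.01. In Suz12delta cells, the 8 members higher at day 5 than in ESCs became 5 with a pseudocount of 1 and with either scaling. In Suz12GT against E14 day 5, the 2 higher became 1 with a pseudocount of 1 and with either scaling, and the 2 lower became 1 with a pseudocount of 1 and 3 when scaled to the same 75th percentile, with Hhip added. With CJ7 as the wild-type ESC, the member median was -0.06 in Suz12delta and 0.06 in Eednull ESCs, and the 0 members higher in Eednull ESCs became 1 (Smo at 1.15). In CJ7 against E14, the 1 member lower became 2 with a pseudocount of 0.01 and 0 with either scaling. Boc in Suz12delta against E14 day 5 (1.02) was under 2-fold with a pseudocount of 1 and with either scaling, and from ESC to day 5 in Eednull cells Boc (1.36) and Cdon (1.12) were 0.92 and 0.99 with a pseudocount of 1. Ptch1 in E14 cells reached 2-fold from ESC to day 5 (1.04) under scaling.

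Scaling to the same 75th percentile moved the all-gene median log2 ratio of day 5 to ESC from 0.42 to 0.06 in Suz12delta cells and from -0.17 to -0.04 in E14 cells, and that to E14 from -0.32 to 0.03 in Suz12delta ESCs, from -0.06 to 0.10 in Eednull ESCs, from -0.17 to 0.04 in CJ7 ESCs and from 0.21 to 0.06 in Suz12delta day 5 cells. Read depth is unknown, so levels such as those of Shh in ESCs carry no interval. No paired analysis was possible because each condition had 1 library.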
